A study of Homo sapiens with 12 samples.

Results

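The genes of the NADPH oxidases and of the proteins that work with them were followed in BCPAP cells, an established line from a human papillary thyroid cancer. They were 9 of the 58735 genes in the deposited table, taken by name: the oxidases NOX4, NOX1, DUOX1 and DUOX2, the maturation factor DUOXA1, the membrane subunit CYBA, and the partners POLDIP2, NOXA1 and SH3PXD2A. Cells received siRNA against NOX4 (siNOX4) or a scrambled siRNA (siControl) and were then kept at 1% oxygen (hypoxia) or 20% oxygen (normoxia). The groups were siNOX4 hypoxia, siControl hypoxia, siNOX4 normoxia and siControl normoxia, with 3 libraries each, and the labels count every transfection as a biological replicate. All 12 libraries come from 1 cell line, so p-values measure the spread between transfections of that line, and in bulk RNA fewer cells expressing a gene and less RNA per cell cannot be told apart.

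NADPH oxidases pass electrons from NADPH across a membrane to oxygen and so make superoxide or hydrogen peroxide. NOX4 and NOX1 sit in the membrane together with p22phox, the product of CYBA; NOX4 is active without cytosolic activators, while NOX1 needs an activator such as NOXA1 and an organizer protein. DUOX1 and DUOX2 are the oxidases that give the thyroid follicle the hydrogen peroxide for hormone synthesis, and they leave the endoplasmic reticulum only with a maturation factor, DUOXA1 or DUOXA2.

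The sequences before 3 start sites are shown because they belong to the silenced gene, to CYBA, called higher in hypoxia with both siRNAs, and to a pair of genes that start head to head. Each is the 250 bases before a RefSeq start site of GRCh38.p14, read along the gene's own strand, with ACGTG or GCGTG, the core letters bound by hypoxia-inducible factors, in capitals where either occurs on either strand.
NOX4 (chr11:89491376-89491625, minus strand): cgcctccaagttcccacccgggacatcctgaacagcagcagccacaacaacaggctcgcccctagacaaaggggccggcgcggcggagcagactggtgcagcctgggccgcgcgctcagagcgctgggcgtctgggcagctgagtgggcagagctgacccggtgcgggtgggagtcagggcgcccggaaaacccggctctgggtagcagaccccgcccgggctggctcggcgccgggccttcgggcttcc
CYBA (chr16:88651054-88651303, minus strand): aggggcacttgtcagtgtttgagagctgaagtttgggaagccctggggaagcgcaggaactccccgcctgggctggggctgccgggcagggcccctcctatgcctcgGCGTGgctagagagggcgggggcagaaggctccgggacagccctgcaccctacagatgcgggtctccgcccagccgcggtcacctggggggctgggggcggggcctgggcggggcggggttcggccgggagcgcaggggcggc
DUOX1 (chr15:45129744-45129993, plus strand): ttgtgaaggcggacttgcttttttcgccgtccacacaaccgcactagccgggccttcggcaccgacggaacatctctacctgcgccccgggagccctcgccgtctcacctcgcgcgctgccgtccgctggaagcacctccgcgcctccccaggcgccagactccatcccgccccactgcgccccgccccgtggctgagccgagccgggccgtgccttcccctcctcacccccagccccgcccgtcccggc
The NOX4 and DUOX1 stretches held neither motif, and the CYBA stretch held 1 GCGTG that begins at −143 from the start site. In windows that also took in the 50 bases after the start, NOX1, NOXA1, DUOX2 and POLDIP2 held at least 1 motif as well, and DUOXA1 and SH3PXD2A held none. Over all 35116 such windows in the table, 48.4% held ACGTG or GCGTG, 36.5% held GCGTG and 21.4% held ACGTG (a window counted once, however many or overlapping its matches). A match describes letters only, and NOX4 had 3 windows in the table and SH3PXD2A 5, of which the one with the most annotated coding transcripts was used. The DUOX1 stretch also carries the start of DUOXA1 on the opposite strand, with the start sites 115 bases apart.

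Summed counts per library were 16559386 to 21282835, and all 9 genes passed the filter on low counts, as did 17277 genes in all. Libraries of siControl normoxia did not all agree. Replicates 1 and 3 differed from replicate 2 by a root mean square of 0.900 to 0.907 on the log2 CPM scale. Within the other 3 groups libraries differed by 0.360 to 0.473, and replicate 1 differed from replicate 3 by 0.468. Against the siNOX4 normoxia libraries, replicate 2 differed by 0.455 to 0.467, but replicates 1 and 3 by 0.882 to 0.973. Replicate 2 was thus the odd one of its group, while replicates 1 and 3 stood apart from all other normoxia libraries. Which of them represents the group was not tested. The main results that use siControl normoxia are therefore also given without replicates 1 and 3, in a fit where the 1 library left is assumed to vary like the other groups. Of 8 thyroid markers, 4 averaged above 1 CPM in each group: PAX8 ranged over 382 to 1735 CPM, but TG, TSHR and SLC5A5 had 0 to 5 counts per library. Summed levels of 7 leukocyte markers were 5.13 to 6.72 CPM in siNOX4 hypoxia, 5.01 to 5.48 CPM in siControl hypoxia, 1.86 to 3.11 CPM in siNOX4 normoxia and 2.10 to 9.45 CPM in siControl normoxia. Those of 7 endothelial and mural markers were 5.70 to 6.44 CPM in siNOX4 hypoxia, 5.28 to 6.27 CPM in siControl hypoxia, 8.92 to 11.2 CPM in siNOX4 normoxia and 9.53 to 39.7 CPM in siControl normoxia. Summed levels of 5 epithelial markers were 344 to 431 CPM in siNOX4 hypoxia, 387 to 409 CPM in siControl hypoxia, 622 to 726 CPM in siNOX4 normoxia and 458 to 624 CPM in siControl normoxia. Those of 4 fibroblast markers were 6.37 to 10.2 CPM in siNOX4 hypoxia, 7.06 to 7.94 CPM in siControl hypoxia, 9.03 to 11.5 CPM in siNOX4 normoxia and 11.7 to 23.8 CPM in siControl normoxia. COL3A1, a fibroblast marker, had 179 and 187 counts in siControl normoxia replicates 1 and 3, against 0 in replicate 2 and 0 to 6 in the other 3 groups. In siControl normoxia replicates 1, 2 and 3, COL1A1 had 200, 183 and 168 counts, DCN 8, 1 and 2, and LUM 16, 5 and 13. PTPRC, which defines leukocytes, had 0 to 5 counts per library, LYZ and ITGAM 0 to 3, CD68 1 to 8 and SPI1 0 to 9. CSF1R had 5 to 44 counts and CD14 13 to 121, with 121 and 98 in siControl normoxia replicates 1 and 3. Of the epithelial markers, KRT8 ranged over 171 to 441 CPM, KRT18 over 169 to 281 CPM and EPCAM over 2.36 to 6.42 CPM. KRT19 had 0 to 6 counts per library and CDH1 0 to 5. PECAM1, an endothelial marker, had 518, 43 and 365 counts in siControl normoxia replicates 1, 2 and 3, and 32 to 60 in the other groups. VWF had 0 to 11 counts per library, CDH5 0 to 5 and MYH11 1 to 17. ACTA2 had 9 to 36, KDR 18 to 50 and PDGFRB 12 to 66. The part of these markers in the results was not tested.

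Per gene length, the partners stood far above the oxidases. FPKM is the authors' value per gene length and a total set for each library. In FPKM, CYBA averaged 120.8 ± 50.4 (SD, n = 12), POLDIP2 47.9 ± 11.1, SH3PXD2A 19.9 ± 5.35 and NOXA1 1.73 ± 0.555. DUOX1 averaged 0.364 ± 0.0812 FPKM, DUOXA1 0.196 ± 0.0915, NOX1 0.163 ± 0.106, NOX4 0.0630 ± 0.0423 and DUOX2 0.0451 ± 0.0206. The ranges over the 12 libraries did not overlap between POLDIP2 and SH3PXD2A, between SH3PXD2A and NOXA1, or between NOXA1 and DUOX1. The other neighbours overlapped, although CYBA exceeded POLDIP2 in 11 of 12 libraries and DUOX1 exceeded DUOXA1 in all 12. NOX1 exceeded NOX4 in 10 libraries, and NOX4 exceeded DUOX2 in 8. These values pool siNOX4 and siControl libraries. NOX4 averaged 0.0303 FPKM in siNOX4 hypoxia, 0.102 in siControl hypoxia, 0.0314 in siNOX4 normoxia and 0.0886 in siControl normoxia.

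The 4 oxidases together reached 0.307 to 0.941 FPKM per library. DUOX1 made up 42.4% to 81.4% of that sum, and NOX4 2.94% to 21.1%. In hypoxia the NOX4 share was 4.08% to 5.94% with siNOX4 and 8.28% to 15.4% with siControl. In normoxia it was 2.94% to 9.65% with siNOX4 and 9.43% to 21.1% with siControl. CYBA, which NOX4 and NOX1 need, was listed at 78.6 to 281 times the summed FPKM of all 4. Of 17874 protein-coding genes with a count, 98.5% had a lower mean FPKM than CYBA, 32.4% a lower one than DUOX1 and 20.8% a lower one than NOX4. These means pool siNOX4 and siControl libraries.

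**Figure D1:**
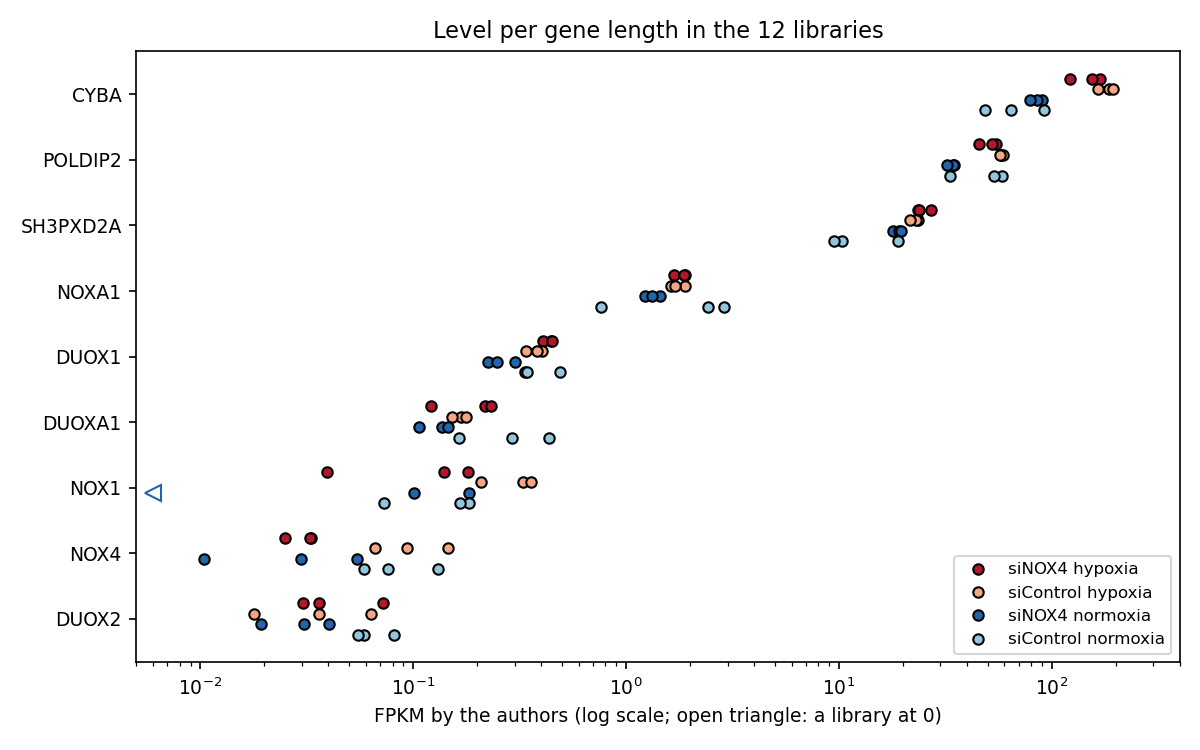
FPKM of the 9 genes (log axis) in the 12 libraries, 1 point per library coloured by group, with an open triangle for the library in which NOX1 had no count. CYBA, POLDIP2 and SH3PXD2A lie above 9 FPKM in every library, and the 4 oxidases and DUOXA1 below 0.5.

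In hypoxia, CYBA was called higher with both siRNAs, POLDIP2 and DUOX1 in siNOX4 cells, and SH3PXD2A in siControl cells. No difference between the siRNAs in these responses passed in the fit of all 12 libraries (edgeR adjusted p = 0.204 for DUOX1, 0.233 for CYBA, 0.355 for POLDIP2 and 0.391 for SH3PXD2A). With only siControl normoxia replicate 2 left out, the difference passed for each, in a setting that called 7696 genes for it. It was then 0.92 for DUOX1 (edgeR adjusted p = 0.0173) and −0.86 for CYBA (edgeR adjusted p = 9.4e-05). For POLDIP2 it was 0.56 (edgeR adjusted p = 2.1e-04) and for SH3PXD2A −0.79 (edgeR adjusted p = 2.1e-06). Without siControl normoxia replicates 1 and 3, POLDIP2 changed by 0.81 in siControl and 0.61 in siNOX4 cells on the log2 scale. SH3PXD2A then changed by 0.27 and 0.42. In siNOX4 cells, edgeR called 3 of the 9 genes higher in hypoxia and none lower, where 56.6% of all tested genes were called and 28.8% were called higher. In siControl cells it called 2 of the 9 higher and none lower, where 53.3% of all genes were called and 25.7% were called higher. The median log2 change of the 9 was 0.56 in siNOX4 cells and 0.19 in siControl cells, against 0.03 and −0.01 over all genes. Without siControl normoxia replicates 1 and 3, the median of the 9 was 0.56 in siNOX4 cells and 0.27 in siControl cells. Over all genes it was then 0.04 and 0.03.

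The siRNA changed fewer of them past the test. In normoxia, 1 of the 9 was called, POLDIP2, as lower in siNOX4 cells, where 15.0% of all genes were called and 11.0% were called lower. In hypoxia, 0 of the 9 were called in a comparison where edgeR called 0.00% of all genes, with 448 genes at an unadjusted p under 0.05 and 4 called by DESeq2. Averaged over both oxygen levels, 0 of the 9 were called and 0.0347% of all genes. The difference between the siRNAs in the response to hypoxia was called for 0 of the 9 and 0.00% of all genes, with 3609 genes at an unadjusted p under 0.05 and 75 called by DESeq2. Median log2 changes of the 9 for siNOX4 were −0.61 in normoxia and 0.07 in hypoxia, against −0.01 and 0.00 over all genes; the normoxia median was −0.12 when siControl normoxia replicates 1 and 3 were left out. With siControl normoxia replicates 1 and 3 left out, none of the 9 was called for siNOX4 at either oxygen level, where 0.0483% of all genes were called in normoxia and 0.145% in hypoxia.

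**Figure D2:**
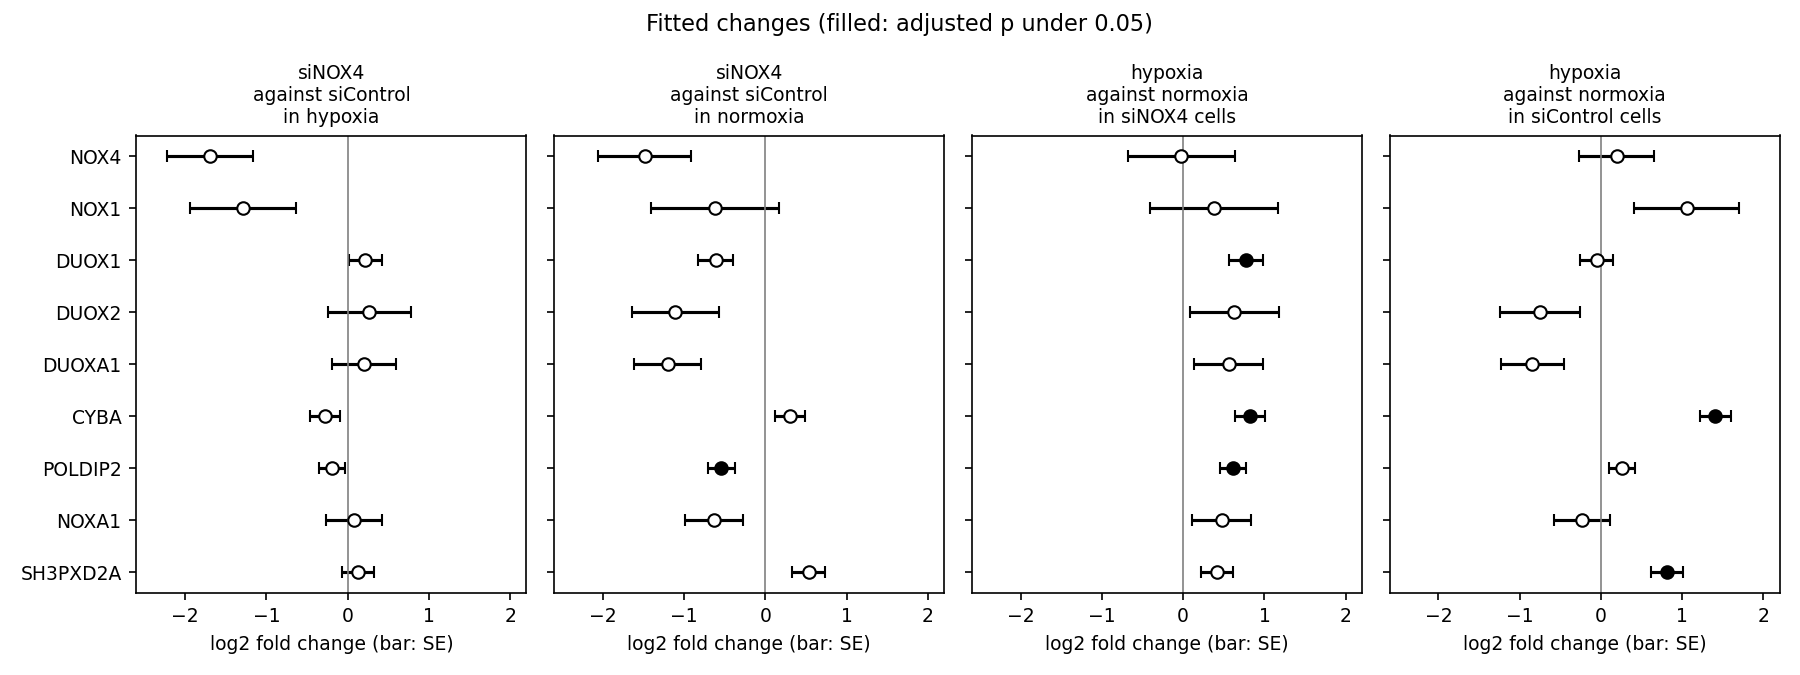
Log2 fold changes of the 9 genes with their SE in 4 comparisons, fitted by edgeR over all genes and libraries. Filled points have an adjusted p under 0.05: POLDIP2 for siNOX4 in normoxia, DUOX1, CYBA and POLDIP2 for hypoxia in siNOX4 cells, and CYBA and SH3PXD2A for hypoxia in siControl cells.

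Libraries of both groups did not overlap for 5 of the 9 genes for siNOX4 in hypoxia, 2 higher and 3 lower with siNOX4, where 16.6% of all genes did not overlap, 7.87% higher and 8.70% lower. They did not overlap for 4 of the 9 for siNOX4 in normoxia, all lower with siNOX4, where 22.4% of all genes did not overlap and 11.2% were lower in that way. For hypoxia against normoxia in siNOX4 cells, 5 genes did not overlap, all higher in hypoxia, where 71.3% of all genes did not overlap and 36.4% were higher in that way. In siControl cells 3 genes did not overlap, all higher in hypoxia, where 56.9% of all genes did not overlap and 29.2% were higher in that way.

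NOX4 (ENSG00000086991; GRCh38, chromosome 11, 89324356 to 89498187, minus strand), the target of the siRNA, was counted 4, 3 and 4 times in siNOX4 hypoxia and 17, 8 and 13 times in siControl hypoxia. In normoxia it was counted 1, 5 and 3 times in siNOX4 cells and 8, 13 and 6 times in siControl cells. Every siNOX4 library was below every siControl library at the same oxygen level. In CPM, counts scaled by TMM library size, the level averaged 0.188 ± 0.0289 in siNOX4 hypoxia and 0.627 ± 0.247 in siControl hypoxia, and 0.193 ± 0.135 in siNOX4 normoxia and 0.547 ± 0.229 in siControl normoxia (SD, n = 3 each). Over both oxygen levels the summed counts were 20 with siNOX4 and 65 with siControl, which put the siNOX4 level at 32.1% of siControl (exact 95% Poisson interval 18.4% to 53.8%, counting error only). An exact two-sided permutation test over the 400 regroupings within oxygen levels gave p = 0.005, the smallest they can give, and within 1 oxygen level 3 libraries against 3 cannot go below 0.1.

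In the fit across all genes NOX4 did not pass: the averaged log2 fold change was −1.59 (SE 0.39, edgeR adjusted p = 0.133), with −1.70 (SE 0.53) in hypoxia and −1.48 (SE 0.57) in normoxia. Leaving out siControl normoxia replicates 1 and 3 gave −1.87 (edgeR adjusted p = 0.164) averaged and −2.04 in normoxia. The averaged change passed without a filter on low counts (−1.59, edgeR adjusted p = 0.0225) and without siControl normoxia replicate 2 (−1.40, edgeR adjusted p = 0.0143). NOX4 was counted few times, and an effect of oxygen on it was not detected. The hypoxia level was 98.8% of normoxia in siNOX4 cells (37.2% to 270% by the exact Poisson interval) and 114% in siControl cells (67.9% to 194%). Set against siControl normoxia replicate 2 alone, which had the highest NOX4 count of its group, the siNOX4 normoxia level was 23.7% (8.93% to 59.8%) and the siControl hypoxia level 77.4% (40.3% to 158%).

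NOX1 (ENSG00000007952; chromosome X, 100843324 to 100874345, minus strand), the oxidase known from colon epithelium, was counted 9, 7 and 2 times in siNOX4 hypoxia and 16, 18 and 12 times in siControl hypoxia. Its counts in normoxia were 4, 7 and 0 in siNOX4 cells and 8, 3 and 7 in siControl cells. The siControl hypoxia libraries were thus above all others. The siNOX4 level in hypoxia was 40.8% of siControl (exact Poisson interval 22.3% to 71.8%; log2 fold change −1.29, SE 0.65, edgeR adjusted p = 1.00). For hypoxia in siControl cells the log2 change was 1.05 (SE 0.65, edgeR adjusted p = 0.188), and none of the NOX1 comparisons passed the test. The siNOX4 log2 fold change in normoxia was −0.61 (SE 0.79), and 0.32 when siControl normoxia replicates 1 and 3 were left out. With siControl normoxia replicate 2 alone as the baseline, the hypoxia change in siControl cells was 2.00 and did not pass either. A processed pseudogene, HNRNPA1P26, lies inside NOX1 on the same strand and had 0 to 2 counts per library.

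DUOX1 (ENSG00000137857; chromosome 15, 45129933 to 45165576, plus strand) had the highest level per length of the 4 oxidases. It stood at 3.95, 3.66 and 4.02 CPM in siNOX4 hypoxia, 3.58, 3.02 and 3.41 CPM in siControl hypoxia, 1.97, 2.66 and 2.18 CPM in siNOX4 normoxia, and 4.37, 2.97 and 3.05 CPM in siControl normoxia. The siNOX4 normoxia libraries were below all 9 others. In siNOX4 cells DUOX1 rose in hypoxia by 0.77 on the log2 scale (SE 0.21, edgeR adjusted p = 0.00774), a 1.71-fold difference. In siControl cells its log2 change was −0.05 (SE 0.21, edgeR adjusted p = 0.845), or 0.17 without siControl normoxia replicates 1 and 3. The difference between these responses was 0.83 (SE 0.29, edgeR adjusted p = 0.204) and did not pass; it was 0.60 without those replicates.

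For siNOX4 against siControl, every siNOX4 library had less DUOX1 than every siControl library in normoxia (log2 fold change −0.61, SE 0.21, edgeR adjusted p = 0.0662) and more in hypoxia (0.21, SE 0.20, edgeR adjusted p = 1.00). Neither passed the test, and without siControl normoxia replicates 1 and 3 the normoxia value was −0.39. With only siControl normoxia replicate 2 left out, the normoxia value was −0.70 and passed (edgeR adjusted p = 0.0142).

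DUOX2 (ENSG00000140279; chromosome 15, 45092650 to 45114344, minus strand), which the thyroid needs for hormone synthesis, was counted 14, 7 and 6 times in siNOX4 hypoxia and 12, 7 and 4 times in siControl hypoxia. In normoxia its counts were 3, 6 and 5 in siNOX4 cells and 10, 13 and 9 in siControl cells, which did not overlap. None of its changes passed: the siNOX4 log2 fold change was −1.11 in normoxia (SE 0.54, edgeR adjusted p = 0.145) and 0.27 in hypoxia (SE 0.51). For hypoxia it was 0.63 (SE 0.55) in siNOX4 cells and −0.75 (SE 0.50) in siControl cells. When siControl normoxia replicates 1 and 3 were left out, the siNOX4 value in normoxia was −1.42 and the hypoxia value in siControl cells −1.06.

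DUOXA1 (ENSG00000140254; chromosome 15, 45117367 to 45129938, minus strand), the maturation factor of DUOX1, was counted 16, 17 and 9 times in siNOX4 hypoxia and 12, 13 and 13 times in siControl hypoxia. In normoxia its counts were 8, 6 and 9 in siNOX4 cells and 28, 10 and 18 in siControl cells. The siControl normoxia libraries were the most spread, with replicate 2, at 0.619 CPM, within the range of the hypoxia libraries and replicates 1 and 3 above it at 1.65 and 1.10 CPM. Its siNOX4 log2 fold change in normoxia was −1.20 (SE 0.41, edgeR adjusted p = 0.0624), and −0.35 without those replicates. For hypoxia in siControl cells it was −0.85 (SE 0.39, edgeR adjusted p = 0.0825), and 0.01 without them. DUOXA1 and DUOX1 share 6 bases on opposite strands and the kit is taken as unstranded, so reads there cannot be assigned, and DUOXA2, which overlaps DUOXA1 by 1055 bases, had 0 to 4 counts per library.

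CYBA (ENSG00000051523; chromosome 16, 88643283 to 88651152, minus strand) encodes p22phox, which NOX4 and NOX1 need to be active. It stood at 417, 573 and 531 CPM in siNOX4 hypoxia, 631, 661 and 560 CPM in siControl hypoxia, 303, 289 and 267 CPM in siNOX4 normoxia, and 221, 311 and 167 CPM in siControl normoxia. Every hypoxia library was above every normoxia library with the same siRNA. The rise was 0.82 on the log2 scale in siNOX4 cells (SE 0.19, edgeR adjusted p = 0.00246), a 1.77-fold difference, and 1.41 in siControl cells (SE 0.19, edgeR adjusted p = 6.4e-05), a 2.65-fold difference. Without siControl normoxia replicates 1 and 3 the rise in siControl cells was 0.99 (edgeR adjusted p = 3.9e-06). The difference between the siRNAs in this rise, −0.58 (SE 0.26, edgeR adjusted p = 0.233), did not pass, and it was −0.17 (edgeR adjusted p = 0.898) without those replicates. It passed without a filter on low counts (−0.60, edgeR adjusted p = 0.0109) and without siControl normoxia replicate 2 (−0.86, edgeR adjusted p = 9.4e-05). The siNOX4 change of CYBA passed neither in hypoxia (−0.28, SE 0.19) nor in normoxia (0.30, SE 0.19, and −0.12 without replicates 1 and 3).

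**Figure D3:**
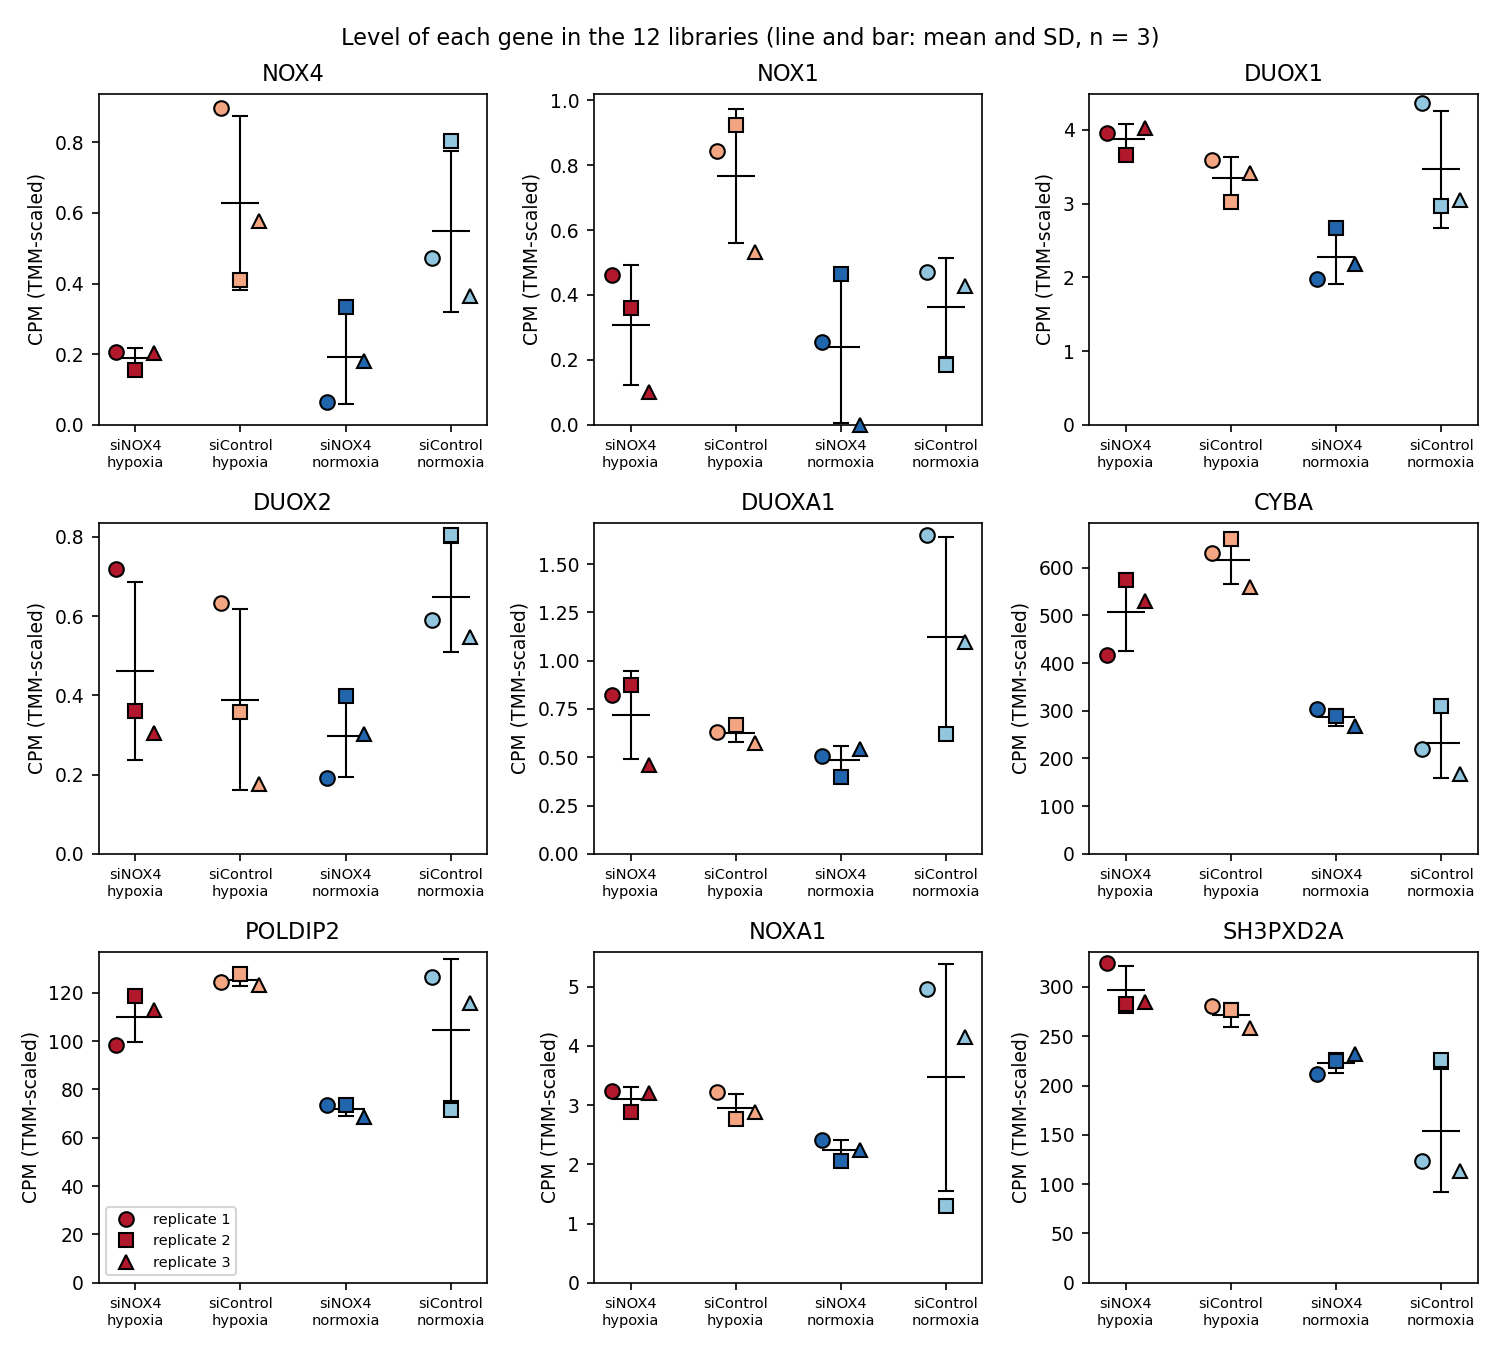
TMM-scaled CPM of each gene in the 12 libraries by group, with the symbol giving the replicate number and the line and bar the mean and SD of 3 libraries. CYBA is higher in every hypoxia library than in the normoxia libraries of the same siRNA, and for POLDIP2, NOXA1 and SH3PXD2A the square of siControl normoxia replicate 2 lies apart from the other replicates.

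POLDIP2 (ENSG00000004142; chromosome 17, 28347177 to 28357522, minus strand), which binds p22phox and raises NOX4 activity in vascular smooth muscle cells, stood at 98.5, 119 and 113 CPM in siNOX4 hypoxia and 125, 128 and 123 CPM in siControl hypoxia. In normoxia it stood at 73.5, 73.6 and 68.5 CPM in siNOX4 cells and 127, 71.5 and 116 CPM in siControl cells. Replicate 2 of siControl normoxia was thus at the siNOX4 level and replicates 1 and 3 were closer to the siControl hypoxia level. POLDIP2 rose in hypoxia in siNOX4 cells by 0.61 on the log2 scale (SE 0.16, edgeR adjusted p = 0.00638). In siControl cells its log2 change was 0.26 (SE 0.16, edgeR adjusted p = 0.193), and 0.81 without replicates 1 and 3, where it passed (edgeR adjusted p = 1.3e-06).

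With siNOX4 in normoxia POLDIP2 fell by 0.54 on the log2 scale (SE 0.16, edgeR adjusted p = 0.0444). That call rested on siControl normoxia replicates 1 and 3: without them the log2 fold change was 0.01 (edgeR adjusted p = 0.999). It also ended when any single library other than siControl normoxia replicate 2 was left out (11 of the 12 libraries, edgeR adjusted p = 0.0584 to 0.198). In the authors' deposited table the same comparison had a log2 fold change of −0.54 and an adjusted p of 0.141. In hypoxia the 3 siNOX4 libraries were below the 3 siControl libraries, with a log2 fold change of −0.19 (SE 0.16, edgeR adjusted p = 1.00) that did not pass.

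NOXA1 (ENSG00000188747; chromosome 9, 137423350 to 137434406, plus strand), the activator of NOX1, stood at 3.23, 2.88 and 3.21 CPM in siNOX4 hypoxia, 3.22, 2.77 and 2.88 CPM in siControl hypoxia, 2.42, 2.06 and 2.24 CPM in siNOX4 normoxia, and 4.96, 1.30 and 4.14 CPM in siControl normoxia. Its lowest and its highest library were thus both siControl normoxia. None of its changes passed in the fit of all 12 libraries (hypoxia in siNOX4 cells 0.47, SE 0.36; hypoxia in siControl cells −0.23, SE 0.35; siNOX4 in normoxia −0.63, SE 0.36). Without siControl normoxia replicates 1 and 3 the hypoxia change was 1.18 in siControl cells (edgeR adjusted p = 0.00482) and 0.47 in siNOX4 cells (edgeR adjusted p = 0.0445), and that of siNOX4 in normoxia was 0.78 without passing. NOXA1 shares 43 bases with ENTPD8 on the opposite strand, which had 1 to 15 counts per library.

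SH3PXD2A (ENSG00000107957; chromosome 10, 103594027 to 103855543, minus strand) encodes the scaffold TKS5 of invadopodia, which resembles the organizer subunits of the oxidases. It stood at 324, 283 and 285 CPM in siNOX4 hypoxia, 280, 276 and 258 CPM in siControl hypoxia, 212, 225 and 232 CPM in siNOX4 normoxia, and 123, 226 and 114 CPM in siControl normoxia. All hypoxia libraries were above all normoxia libraries, and siControl normoxia replicate 2 was within the siNOX4 normoxia range. SH3PXD2A rose in hypoxia in siControl cells by 0.82 on the log2 scale (SE 0.20, edgeR adjusted p = 0.00419), but by 0.27 without replicates 1 and 3 (edgeR adjusted p = 0.0237). In siNOX4 cells the change was 0.42 (SE 0.20, edgeR adjusted p = 0.0899), and 0.42 with an edgeR adjusted p = 1.3e-05 without those 2 siControl libraries. Its siNOX4 log2 fold change in normoxia was 0.53 (SE 0.20, edgeR adjusted p = 0.0764), and −0.02 without them.

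**Figure D4:**
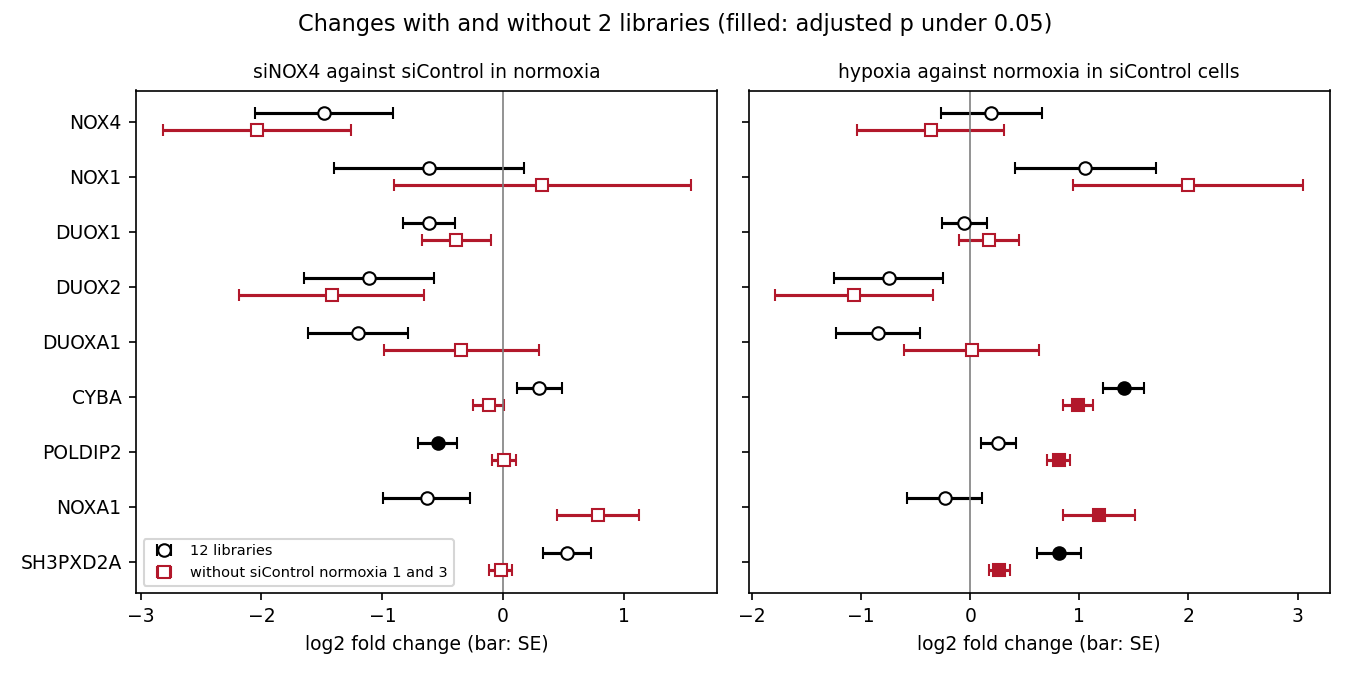
Log2 fold changes with their SE for siNOX4 in normoxia and for hypoxia in siControl cells, in all 12 libraries (circles) and without siControl normoxia replicates 1 and 3 (squares), filled where the adjusted p is under 0.05. For siNOX4 in normoxia, POLDIP2, SH3PXD2A and CYBA move to 0.01, −0.02 and −0.12; for hypoxia, POLDIP2 and NOXA1 move to 0.81 and 1.18.

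Other genes of the oxidase systems were listed too, 13 subunits and paralogs and 16 regulators, of which 18 could be tested. CYBB, the phagocyte oxidase, and S100A8 had no count in any library, and NOX5 had 24 counts, NOX3 3 and NOXO1, the organizer of NOX1, 2 over all 12. In hypoxia, 5 of the 18 rose and 5 fell in siNOX4 cells, and 7 rose and 8 fell in siControl cells, where 56.6% of all tested genes were called in siNOX4 cells and 53.3% in siControl cells. CYBC1, the chaperone with which CYBB and CYBA mature, rose by 1.93 in siNOX4 cells (SE 0.19, edgeR adjusted p = 5.0e-06) and by 1.19 in siControl cells (SE 0.18, edgeR adjusted p = 1.6e-04), or 1.73 without siControl normoxia replicates 1 and 3. It stood at 54.6 to 64.1 CPM in siNOX4 hypoxia, 51.3 to 57.1 CPM in siControl hypoxia, 13.7 to 17.6 CPM in siNOX4 normoxia and 16.5 to 31.3 CPM in siControl normoxia. P4HB, a protein disulfide isomerase that associates with NOX1 in vascular cells, rose by 0.75 in siNOX4 cells and by 1.09 in siControl cells, or 0.76 without these 2 siControl libraries. PRDX6, a peroxiredoxin, fell by 0.96 in siNOX4 cells and by 0.43 in siControl cells; in siControl cells it fell by 0.72 without them (edgeR adjusted p = 4.6e-06).

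For siNOX4, 3 of the 18 rose and 2 fell in normoxia, where 15.0% of all tested genes were called, and none passed in hypoxia, where 0.00% were. RAC1, the small GTPase that switches on NOX1, rose by 0.40 on the log2 scale in siNOX4 normoxia (SE 0.11, edgeR adjusted p = 0.0354). Without siControl normoxia replicates 1 and 3 none of these 5 calls held, and RAC1 was at 0.16, while for hypoxia 7 rose and 7 fell of 19 tested genes in siNOX4 cells, and 7 rose and 6 fell in siControl cells.

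Across the 12 libraries, the protein-coding genes whose log2 CPM was most like that of CYBA, among 10449 compared, were PNP (Pearson r = 0.994), SNRPB (0.993) and TNFRSF12A (0.992). For POLDIP2 they were LYRM2 (0.988), FIZ1 (0.988) and SMARCAL1 (0.986), and for SH3PXD2A NPDC1 (0.994), SNX33 (0.992) and ARID1A (0.989). The libraries share their oxygen level and siRNA in groups of 3, so these values describe the pattern over 4 groups. The other 6 genes were below 5 CPM and were not compared in this way.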

How the data were processed

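Total RNA of BCPAP cells gave 12 libraries, prepared with a TruSeq kit per the labels' protocols. The authors deposited whole-number counts per gene and FPKM, per the file headers and the values, with log2 fold changes and p-values of 4 comparisons. FPKM was the count divided by gene length and by a total for each library. Summed counts were 91.0% (siNOX4 hypoxia replicate 1) to 110.7% (siNOX4 normoxia replicate 1) of that total. The submitters' processing notes name Bowtie 0.12.2 and the mouse builds mm8 and mm9 without a role; gene starts and ends in the table match GENCODE 29 on GRCh38. No source used here names the counting tool or its treatment of strand and multi-mapping reads, so reads of overlapping genes cannot be told apart.

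From the counts, edgeR 4.0.16 in R 4.3.3 was fitted with TMM scaling, its default filter on low counts (17277 genes kept) and the quasi-likelihood test over all 4 groups, with Benjamini-Hochberg adjustment over all genes and a threshold of 0.05. Tests were two-sided. Exact permutation tests and exact 95% Poisson intervals were added, and both cover single genes. The fit was checked on simulated counts. The genes and lists were chosen with earlier results of these data known; all 9 members are named, other genes by their list or their likeness. Alternatives were other scalings, no and a stricter filter, DESeq2 1.42.0, a replicate block, fits of only the compared groups, each library left out, and both siControl normoxia libraries that stood apart left out. Promoter sequences are from RefSeq. Results of some listed genes are not reported here.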

Additional observations from a re-analysis of the deposited data

Results flagged for a closer look

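DUOX1 drew attention because its 3 siNOX4 libraries were all below the 3 siControl libraries in normoxia (log2 fold change −0.61, SE 0.21, edgeR adjusted p = 0.0662) and all above them in hypoxia (0.21, SE 0.20, edgeR adjusted p = 1.00). The difference between the 2 effects was tested as an interaction and did not pass (0.83, SE 0.29, edgeR adjusted p = 0.204). It passed only without siControl normoxia replicate 2 (0.92, edgeR adjusted p = 0.0173), among the alternatives run.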

How the results depend on the processing

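Over the 54 log2 changes of the 9 genes in 6 comparisons, 1015 values under other settings were computed: 930 kept direction and side of the threshold, 14 lost the call, 33 gained it and 38 changed sign. The hypoxia rise of CYBA with both siRNAs, of DUOX1 and POLDIP2 in siNOX4 cells and of SH3PXD2A in siControl cells kept its call under every alternative run. The cause of the other changes was not tested.

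Counts of called genes moved most. For siNOX4 in normoxia 2593 genes were called, against 4696 without a filter, 4163 by DESeq2, 0 in a fit of only the compared groups, 2 to 9866 with 1 library left out (9866 when siControl normoxia replicate 2 was the one) and 9 with both libraries that stood apart removed. For siNOX4 in hypoxia they were 0, against 15 without a filter, 4 by DESeq2, 8 in a fit of only the compared groups, 0 to 12 with 1 library left out and 27 with both removed. For siNOX4 averaged over oxygen they were 6, against 2522 without a filter, 786 by DESeq2, 11 with a stricter filter, 3 to 7878 with 1 library left out and 39 with both removed. For the interaction they were 0, against 2107 without a filter, 75 by DESeq2, 0 to 7696 with 1 library left out and 2 with both removed. Both hypoxia counts stayed within 1.5 times.

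Without siControl normoxia replicates 1 and 3, siNOX4 in normoxia turned sign for NOX1 (0.32), CYBA (−0.12), POLDIP2 (0.0082), NOXA1 (0.78) and SH3PXD2A (−0.019). Averaged over oxygen it turned for CYBA (−0.20) and NOXA1 (0.43). Hypoxia in siControl cells turned for NOX4 (−0.36), DUOX1 (0.17), DUOXA1 (0.012) and NOXA1 (1.18), and the interaction for NOX4 (0.34), POLDIP2 (−0.20), NOXA1 (−0.71) and SH3PXD2A (0.15). Upper-quartile scaling turned NOX4 for hypoxia in siNOX4 cells (0.055) and DUOX1 for hypoxia in siControl cells (0.066).

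With 1 library left out at a time, signs turned within these ranges: hypoxia in siNOX4 cells for NOX4 (−0.43 to 0.57) and NOX1 (−0.22 to 1.26), hypoxia in siControl cells for NOX4 (−0.13 to 0.57), DUOX1 (−0.14 to 0.15) and NOXA1 (−0.62 to 0.11), siNOX4 in hypoxia for DUOX2 (−0.20 to 0.79), siNOX4 averaged over oxygen for CYBA (−0.088 to 0.15), and the interaction for NOX4 (−0.62 to 0.38) and NOX1 (−1.28 to 0.20). Without siControl normoxia replicate 2, 9866 genes were called for siNOX4 in normoxia, 7878 for siNOX4 averaged over oxygen and 7696 for the interaction. With all 12 libraries these counts were 2593, 6 and 0. In that setting, with so many more genes called, 19 of the 54 changes gained a call. Among them were siNOX4 in normoxia for DUOX1 (−0.70), DUOXA1 (−1.48), CYBA (0.57), NOXA1 (−1.01) and SH3PXD2A (0.92). Another was siNOX4 averaged over oxygen for NOX4 (−1.40). Without a filter on low counts, calls were gained by NOX4 averaged over oxygen (−1.59), the CYBA interaction (−0.60), POLDIP2 averaged over oxygen (−0.36) and SH3PXD2A averaged over oxygen (0.33), in normoxia (0.54) and for hypoxia in siNOX4 cells (0.43).

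Samples with the same replicate number showed little shared deviation: 2 of 18 pairs had a correlation over 0.1 (range −0.06 to 0.15). Both were siNOX4 against siControl in normoxia. With 3 libraries per group, and a siControl normoxia replicate 2 unlike replicates 1 and 3, these values cannot decide whether the numbers pair the samples. With the replicate block, POLDIP2 in normoxia had a log2 fold change of −0.53 (edgeR adjusted p = 0.0574) and its call ended; no other call of the 9 genes changed, and 2617 genes were called there. NOX4, NOX1, DUOX2 and DUOXA1 had at most 28 counts per library, which limits their precision; a stricter filter dropped the genes below 5 CPM, so they have no value under it.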
